A study of Bos taurus with 40 samples.

Results

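The genes described here are the mitochondrial carriers of the SLC25 family and the uncoupling proteins, measured by RNA-seq in 4 tissues of Korean cattle. They were chosen by name alone: all genes of the count tables whose symbol begins with SLC25A, together with UCP1, UCP2 and UCP3. This gave 40 of the 13570 genes in the tables (37 SLC25A symbols and 3 UCP symbols), and 2 further carriers of that name were left out and are not analysed here. Each of the 40 genes had at least 1 read in at least 1 library. All 40 therefore entered every main test, among the 13148 genes with a read in any library.

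The inner membrane of the mitochondrion is tight to ions and metabolites, and the carriers of this family let selected molecules through it, mostly by exchanging one for another. They bring ADP and phosphate to the ATP synthase and export ATP, pass citrate, malate, aspartate and glutamate between matrix and cytosol, admit acylcarnitines for fatty acid oxidation and supply cofactors and iron. The uncoupling proteins belong to the same family: UCP1 lets protons back into the matrix and so produces heat in brown fat, while UCP3 is best known from skeletal muscle and UCP2 from many tissues and from immune cells.

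The samples came from 5 cows and 5 bulls of Korean cattle, untreated and slaughtered at an age above 22 months. From each animal abdominal fat, liver, longissimus dorsi muscle (the long muscle of the back) and pituitary gland were taken, which gave 40 poly-A selected libraries in 8 groups of 5, and the ear tag in the labels ties the 4 tissues to 1 animal. The replicate is therefore the animal. The libraries held 5173092 to 19165864 reads on named genes, and levels are given as CPM, a count relative to the total of its library, scaled with the trimmed mean of M values (TMM), so that 3 reads correspond to 0.132 to 0.793 CPM depending on the library.

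Markers of each tissue were highest in the tissue of that label (6 of 6 liver markers, 5 of 5 measured fat markers, 6 of 6 muscle markers and 7 of 7 pituitary hormone genes). In 2 libraries the sex-linked genes differed from those of the same label. The liver library of bull 3 held XIST, the transcript of the inactive X chromosome, at 1401 CPM, within the range of the 5 cow livers (681 to 2179 CPM), whereas the other 4 bull livers held at most 0.936 CPM, and USP9Y, DDX3Y and ZFY of the Y chromosome had no reads in it. The fat library of bull 5 held USP9Y at 1.78 CPM, below the other 4 bulls (28.1 to 34.1 CPM), with XIST at only 1.39 CPM. Both were kept under their labels, and the tissue calls that changed when either was left out are given with the counts of calls. In whole tissue, fewer cells of a type and less RNA per cell cannot be told apart, and this holds for every level below.

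The first question was in which tissue each carrier is most abundant. A gene was called highest in a tissue when it was higher there than in each of the other 3 tissues at an adjusted p under 0.05 (edgeR's quasi-likelihood test with sex and tissue as terms, Benjamini-Hochberg adjustment over all 13148 genes). Tissues said not to differ beyond their spread had an adjusted p of at least 0.05 in this test, which does not show equal levels. In liver 9 members were called highest, against 13.6% of all genes tested. Abdominal fat held 7 members called highest (11.4% of all genes), muscle 7 (13.0%) and pituitary 6 (15.5%), and 11 members were highest in no single tissue. The count in liver ranged from 5 with library sizes alone to 12 with DESeq2. Without the liver of bull 3, SLC25A30 and SLC25A42 were also called highest in liver (11 members). Without the fat of bull 5, SLC25A21, SLC25A30 and SLC25A42 were called highest in liver (12 members), and SLC25A17 and SLC25A33 lost their call in fat (5 members). The shares of all genes called highest are those of the main test and are not given for these other settings. Between pairs of tissues, 29 members differed between liver and fat (all genes 64.3%), 29 between liver and muscle (62.1%), 33 between liver and pituitary (64.5%), 27 between fat and muscle (59.6%), 28 between fat and pituitary (64.6%) and 25 between muscle and pituitary (64.0%). Together the members took 0.290 to 0.529% of the reads in muscle, 0.237 to 0.623% in fat, 0.204 to 0.272% in pituitary and 0.113 to 0.227% in liver.

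**Figure D1:**
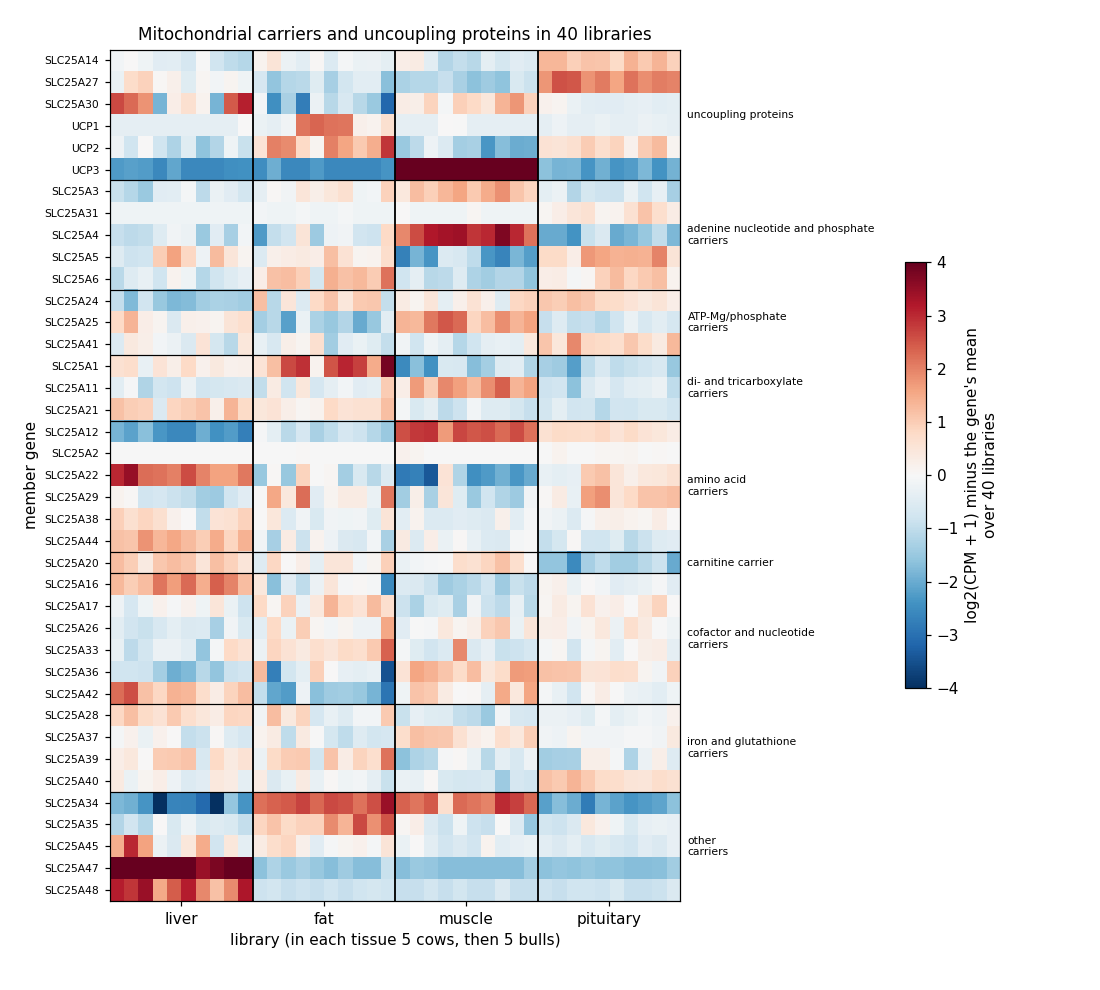
Heat map of log2(CPM + 1) for 39 members (rows, grouped by role) in each of the 40 libraries (columns, 5 cows then 5 bulls in each tissue), minus the member's mean over all libraries, with colours cut off at 4. UCP3 and SLC25A4 stand out in muscle, SLC25A47 and SLC25A48 in liver, SLC25A1 and UCP1 in fat, and SLC25A27 and SLC25A14 in pituitary.

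The uncoupling proteins and their nearest relatives divided among the tissues: of 6 members, 2 were called highest in fat, 1 in muscle, 2 in pituitary and 1 in none. UCP3 showed the widest contrast. Its lowest, median and highest level over the 10 muscle libraries were 206, 769 and 2612 CPM, whereas the other tissues held 0 to 3 reads in liver, 0 to 8 in fat and 2 to 14 in pituitary. Every muscle library lay above every library of the other tissues, and the log2 fold change of muscle over pituitary, the next tissue, was 10.81 ± 0.39 (adjusted p = 2.22e-22). Pituitary, at 0.471 ± 0.27 CPM (SD, n = 10), was itself above liver (adjusted p = 0.0122) and fat (adjusted p = 0.000618), while liver and fat did not differ beyond their spread (adjusted p = 0.51). Within muscle 1 animal, cow 5, stood above all others at 2612 CPM.

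UCP2 lies next to UCP3 in the bovine genome, with 0 protein-coding genes between them in RefSeq's annotation, but its levels ran in another order. It was highest in fat with 87.7, 236 and 602 CPM (lowest, median, highest), followed by pituitary with 87.1, 128 and 199 CPM, liver with 25.8, 46.7 and 82.2 CPM and muscle with 15.5, 29.7 and 70.1 CPM. The groups overlapped between fat and pituitary, with a log2 fold change of 0.93 ± 0.27 (adjusted p = 0.00278). Each step of the order passed the test, down to liver over muscle (0.63 ± 0.27, adjusted p = 0.0427). The highest fat library was that of bull 5 (602 CPM), and without it the mean in fat was 217 ± 92.2 CPM (SD, n = 9) in place of 256 ± 149 CPM (n = 10).

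UCP1, the uncoupling protein of brown fat, was called highest in fat but at very low levels. The 5 cows held 0.0515, 0, 0.164, 4.58 and 5.43 CPM and the 5 bulls 4.79, 4.65, 0.458, 0.421 and 1.005 CPM in numerical order. Cow 4, cow 5, bull 1 and bull 2 thus held 53 to 84 reads each, and the other 6 fat libraries held 0 to 13. Outside fat no library had more than 3 reads, and the test of fat against liver, muscle and pituitary gave adjusted p = 9.23e-07, 4.71e-06 and 1.12e-07. Of 8 other brown fat markers 4 were measured. CIDEA, a lipid droplet protein of brown and also of other fat, was present in every fat library (65.2 to 801 CPM), ELOVL3, DIO2 and ADRB3 did not exceed 2.21, 0.464 and 2.47 CPM there, and of the 3 animals with most CIDEA (bull 5, cow 2 and cow 4 at 801, 431 and 419 CPM) cow 4 alone was among the 4 with most UCP1. The part of brown fat cells in the UCP1 reads was not tested.

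Among the relatives, SLC25A27 (also named UCP4, known from neurons) and SLC25A14 (also named UCP5 or brain mitochondrial carrier) were called highest in pituitary. SLC25A27 stood at 18.0, 24.7 and 35.7 CPM in pituitary (lowest, median, highest) and at most 11.01 CPM in any other library, so that the pituitary did not overlap with the other tissues. Its log2 fold change over liver was 2.06 ± 0.23 (adjusted p = 2.98e-10), and liver was in turn above fat (1.30 ± 0.24, adjusted p = 7.79e-06), while fat and muscle did not differ beyond their spread (adjusted p = 0.17). SLC25A14 followed the same rule at lower contrast, with 9.21, 11.9 and 14.6 CPM in pituitary and 3.08 to 7.41 CPM in fat, the next tissue (log2 fold change 1.46 ± 0.21, adjusted p = 1.51e-07). Its fat, liver and muscle levels did not differ at the threshold, most narrowly between fat and liver (adjusted p = 0.0945).

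SLC25A30, known as kidney mitochondrial carrier protein, spread widely among the livers. The 5 cows held 282, 219.9, 159.8, 11.5 and 54.3 CPM and the 5 bulls 70.1, 49.8, 11.8, 248 and 397 CPM. The lowest levels were those of cow 4 and bull 3, whose liver profiles were the most alike of all pairs of livers, and the highest that of bull 5. Liver stood above fat (log2 fold change 2.92 ± 0.42, adjusted p = 3.54e-07) and pituitary (2.01 ± 0.42, adjusted p = 8.68e-05), but its difference from muscle (42.4, 80.8 and 155 CPM) did not pass the test (adjusted p = 0.0671). This depended on the setting: liver over muscle passed without the liver of bull 3 (log2 fold change 1.03, adjusted p = 0.0225), without the fat of bull 5 (adjusted p = 0.0326), without cow 4 (adjusted p = 0.0427), with DESeq2 (adjusted p = 0.0276), with RLE factors, another scaling between libraries (adjusted p = 0.0371), and with edgeR's filter on low counts (adjusted p = 0.0328). Without the liver of bull 3 the liver mean was 166 ± 130.1 CPM (SD, n = 9) in place of 150.4 ± 132 CPM.

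**Figure D2:**
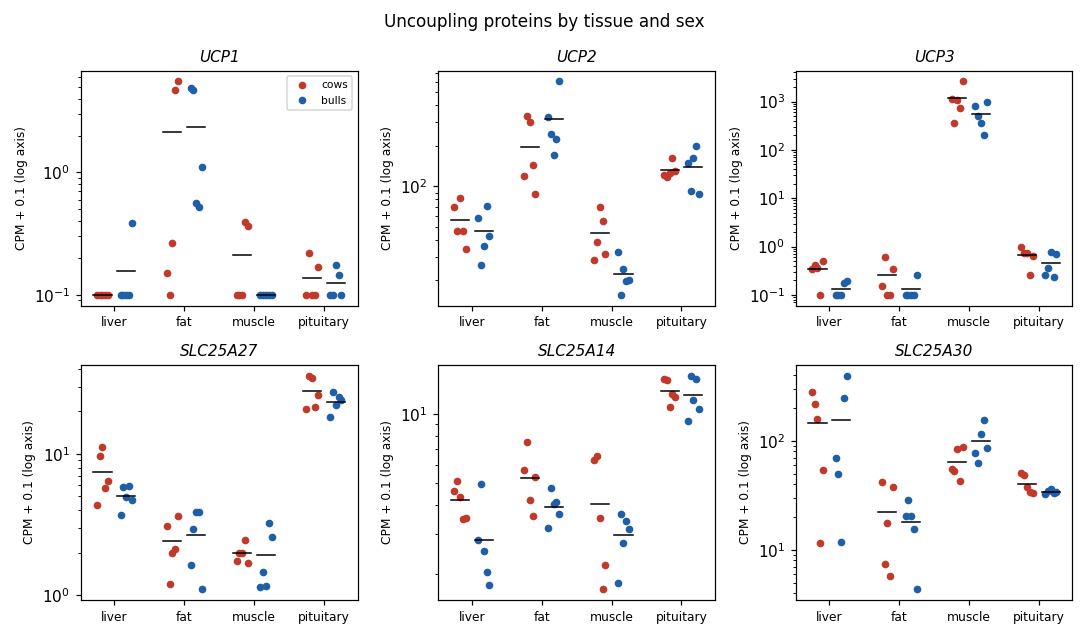
Levels of the 3 uncoupling proteins and their 3 nearest relatives in CPM + 0.1 on a log axis, by tissue, with 1 point per library (cows red, bulls blue) and a line at the mean of each group of 5. UCP3 lies at 206 to 2612 CPM in muscle and below 1 CPM elsewhere, UCP1 exceeds 1 CPM in no tissue but fat, and SLC25A30 spreads from 11.5 to 397 CPM in liver.

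The next group moves the substrates and product of ATP synthase. Of 5 members, 2 were called highest in muscle (SLC25A4 and SLC25A3), 2 in pituitary (SLC25A5 and SLC25A31) and 1 in no tissue (SLC25A6). SLC25A4, SLC25A5 and SLC25A6 encode the adenine nucleotide translocases 1, 2 and 3, which exchange ADP for ATP. They are close copies of each other, and reads that map to more than 1 place were not counted, so the split between them is uncertain.

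SLC25A4 reached 942, 2007 and 3319.8 CPM in muscle (lowest, median, highest) and no more than 428 CPM in any other library. Its log2 fold change of muscle over fat was 3.40 ± 0.29 (adjusted p = 1.77e-12). Fat (192 ± 118 CPM, SD, n = 10) and liver (158 ± 52.7 CPM) did not differ beyond their spread (adjusted p = 0.422), and both lay above pituitary at 87.6 ± 39.1 CPM. SLC25A5 ran the other way, with 77.3 ± 28.6 CPM in pituitary, 45.5 ± 27.4 in liver, 41.7 ± 14.0 in fat and 9.70 ± 6.47 in muscle. Its log2 fold change of pituitary over muscle was 2.98 ± 0.31 (adjusted p = 2.33e-10), whereas the step from pituitary to liver was small (0.76 ± 0.31, adjusted p = 0.0293) and was lost in 3 of the 10 fits that left out an animal (cow 2, bull 2 or bull 4). Liver and fat did not differ beyond their spread for SLC25A5. SLC25A6 was most abundant in fat (744 ± 339 CPM) and pituitary (531 ± 183 CPM). These 2 tissues did not differ at the threshold (adjusted p = 0.0668, but 0.00901 without cow 5 and 0.0459 with edgeR's filter on low counts). SLC25A6 was lower in liver (235 ± 66.2 CPM) and muscle (167 ± 47.6 CPM). The log2 fold change of muscle over liver was -0.48 ± 0.23 and narrowly missed the threshold (adjusted p = 0.0726).

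The balance of the translocases within a library is free of scaling between libraries. For each read on SLC25A6, the 10 muscle libraries held 4.90 to 22.4 reads on SLC25A4 (median 13.3), the livers 0.419 to 0.939 (median 0.668), the fats 0.128 to 0.547 (median 0.222) and the pituitaries 0.0756 to 0.378 (median 0.150). The muscles did not overlap with any other tissue in this ratio. For each read on SLC25A5, muscle held 118 to 785 reads on SLC25A4 and pituitary 0.714 to 1.73. SLC25A31, the translocase known from the testis, was near absent: the pituitaries held 3 to 19 reads each (0.189 to 1.45 CPM), and no library of another tissue held more than 1.

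SLC25A3, the phosphate carrier, held 491 ± 134 CPM in muscle, 249 ± 74.4 in fat, 134 ± 39.1 in liver and 133 ± 34.2 in pituitary (SD, n = 10 each). The log2 fold change of muscle over fat was 0.99 ± 0.19 (adjusted p = 1.85e-05), but with library sizes alone in place of TMM it was 0.19 and did not pass the test (adjusted p = 0.337). Relative to library sizes alone, TMM moved the log2 level of every gene by 0.37 in liver, 0.46 in muscle, -0.35 in fat and -0.48 in pituitary on average. The split of members called higher in each tissue moved with it, except between muscle and liver. Percentages in brackets are the share of all genes called that were higher in the first tissue. For fat and liver, 16 and 13 members became 22 and 9 (55.1 to 76.8%). For pituitary and liver, 17 and 16 became 23 and 11 (54.4 to 78.6%). For muscle and fat, 10 and 17 became 7 and 27 (45.0 to 19.9%). For pituitary and fat, 12 and 16 became 15 and 13 (50.8 to 55.6%). For pituitary and muscle, 13 and 12 became 21 and 8 (50.7 to 79.0%). For muscle and liver, 12 and 17 became 12 and 18 (54.8 to 51.8%).

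The ATP-Mg/phosphate carriers, which set the pool of adenine nucleotides in the matrix, had 3 members here. SLC25A25 was highest in muscle (116, 179 and 353 CPM) with a log2 fold change of 1.28 ± 0.22 over liver (adjusted p = 4.12e-06). SLC25A41 was highest in pituitary (13.1 ± 5.24 CPM, against 5.75 ± 2.49 in liver, log2 fold change 1.19 ± 0.27, adjusted p = 0.000197). SLC25A24 had no single highest tissue. Its level in pituitary, fat and muscle (20.4 ± 4.65, 17.4 ± 8.85 and 14.7 ± 4.80 CPM) did not differ beyond their spread, and each was above liver at 3.88 ± 1.202 CPM (adjusted p from 2.93e-10 to 4.97e-08).

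**Figure D3:**
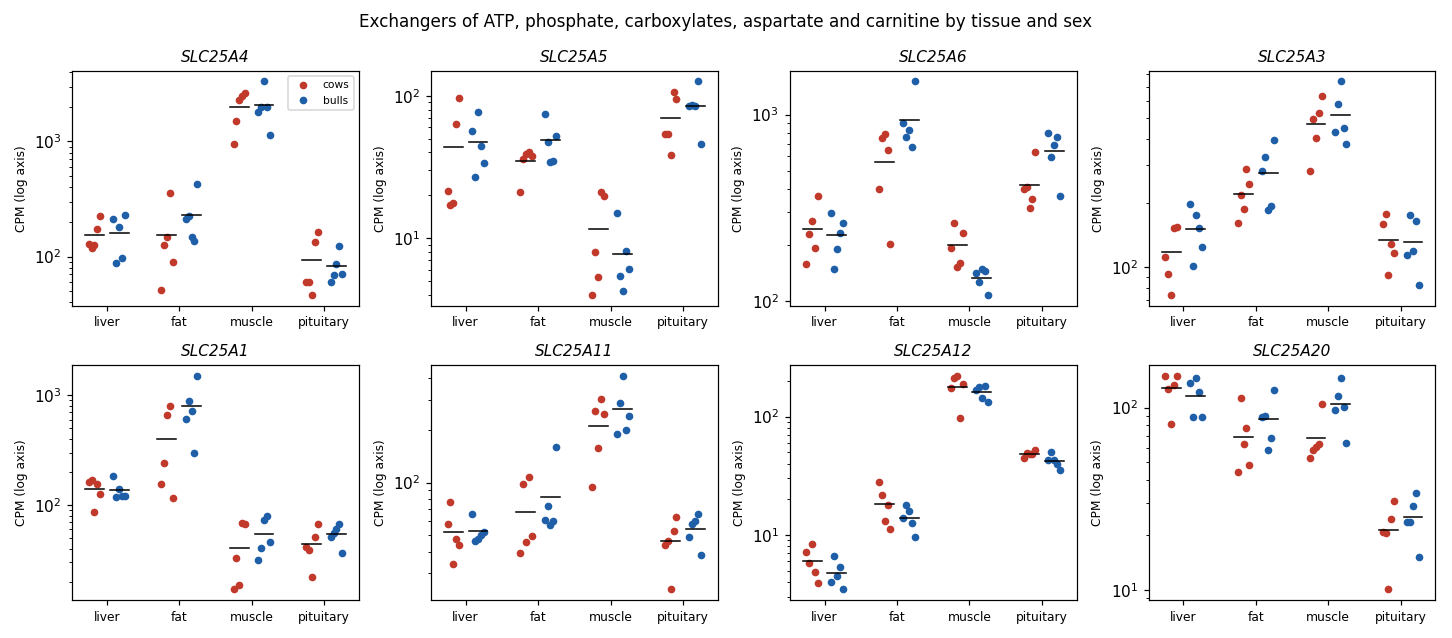
Levels in CPM on a log axis, by tissue, of the 3 adenine nucleotide translocases, the phosphate carrier SLC25A3, the citrate carrier SLC25A1, the oxoglutarate carrier SLC25A11, the aspartate/glutamate carrier SLC25A12 and the carnitine carrier SLC25A20, with 1 point per library (cows red, bulls blue) and a line at the mean of each group of 5. SLC25A4, SLC25A11 and SLC25A12 are highest in muscle, SLC25A1 in fat.

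The di- and tricarboxylate carriers and the aspartate/glutamate carrier link the citric acid cycle to the cytosol. SLC25A1 exports citrate, from which the cytosol makes acetyl-CoA for fatty acid synthesis. Its lowest, median and highest level were 117, 634 and 1514 CPM in fat and 86.5, 133 and 186 CPM in liver, with some overlap, and it was at most 79.5 CPM in every muscle and pituitary library. The log2 fold change of fat over liver was 2.04 ± 0.30 (adjusted p = 3.63e-07), and muscle and pituitary did not differ beyond their spread (adjusted p = 0.876). The fat libraries ran from cow 5 at 117 CPM to bull 5 at 1514 CPM. Without bull 5 the mean in fat was 499 ± 295 CPM (SD, n = 9) in place of 600.5 ± 425 CPM.

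SLC25A11 exchanges oxoglutarate for malate and SLC25A12 aspartate for glutamate, and both take part in the malate-aspartate shuttle, which carries reducing equivalents into the matrix. Both were called highest in muscle. SLC25A11 held 93.9, 245 and 413 CPM there, with a log2 fold change of 1.67 ± 0.22 over fat (adjusted p = 2.39e-08). SLC25A12 held 97.1, 176 and 221 CPM in muscle, 35.7, 46.3 and 51.7 in pituitary, 9.66, 14.9 and 27.8 in fat and 3.49, 5.15 and 8.45 in liver. No 2 of these tissues overlapped, and all 6 pairs passed the test, with a log2 fold change of 4.97 ± 0.16 between muscle and liver (adjusted p = 2.49e-25).

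The enzymes that act on the same metabolites were counted from a fixed list of 8, all of them measured: 5 were called highest in muscle, 2 in fat and 1 in no tissue. The 2 in fat were ATP-citrate lyase (ACLY, 401 ± 536 CPM in fat, log2 fold change 2.15 over pituitary, adjusted p = 1.77e-06), which cleaves exported citrate, and malic enzyme 1 (ME1, 279 ± 159 CPM, log2 fold change 2.48 over muscle, adjusted p = 1.79e-07). Those in muscle included MDH1 and MDH2, the malate dehydrogenases of cytosol and matrix. Of 14 genes for mitochondrial content in general such as citrate synthase, porins and import subunits, 6 were called highest in muscle, 1 in liver and 7 in no tissue. Their summed level was 2476 to 3934 CPM in muscle, 1267 to 2580 CPM in liver, 966 to 1914 CPM in fat and 698 to 1033 CPM in pituitary, so that liver overlapped with muscle. The part of mitochondrial content in the muscle levels of the carriers was not tested.

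Of 6 amino acid carriers, 3 were called highest in liver, 1 in muscle (SLC25A12) and 2 in no tissue. SLC25A22, a glutamate carrier, held 68.0, 98.5 and 255 CPM in liver against 16.4, 29.9 and 50.04 CPM in pituitary, without overlap (log2 fold change 1.95 ± 0.37, adjusted p = 2.07e-05). SLC25A44, a carrier of branched-chain amino acids, held 123, 165 and 235 CPM in liver and at most 85.8 CPM in any other library, with a log2 fold change of 1.47 ± 0.18 over muscle (adjusted p = 2.61e-09). SLC25A38, which imports glycine for haem synthesis, was higher in liver by a small step over pituitary (0.53 ± 0.19, adjusted p = 0.0129), which was lost without cow 3 (adjusted p = 0.0552) and turned to -0.29 (adjusted p = 0.194) with library sizes alone. SLC25A2, an ornithine carrier, had at most 2 reads in any library.

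The members with the sharpest liver contrast were SLC25A47 and SLC25A48, a pair of less studied carriers. SLC25A47 held 35.4, 93.4 and 176 CPM in liver and at most 10 reads in any other library (log2 fold change over fat 8.74 ± 0.45, adjusted p = 3.81e-20). SLC25A48 held 3.22, 10.9 and 19.5 CPM in liver and at most 4 reads in any other library (log2 fold change over pituitary 6.93 ± 0.54, adjusted p = 4.48e-16). All 10 livers lay above all 30 other libraries for both genes, and no difference among the other 3 tissues passed the test for either gene. SLC25A16, related to coenzyme A transport, was also higher in liver (21.4, 32.3 and 57.7 CPM) than in pituitary (7.17, 8.99 and 11.9 CPM), with a log2 fold change of 1.99 ± 0.27 (adjusted p = 4.44e-08). SLC25A45, also less studied, spread over 0, 1.31 and 12.7 CPM in liver and passed narrowly against fat (1.28 ± 0.54, adjusted p = 0.0361). That call was lost with the animal as a replicate block (0.86, adjusted p = 0.133), with library sizes alone (0.68, adjusted p = 0.285) and without cow 1, cow 2, bull 2 or bull 4 (adjusted p up to 0.227).

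SLC25A20, which exchanges acylcarnitine for carnitine and so admits fatty acids to oxidation, was highest in liver (80.9, 130.1 and 149.7 CPM), with muscle (53.0, 80.3 and 145 CPM) and fat (44.2, 72.8 and 124 CPM) overlapping it and pituitary (10.1, 23.5 and 34.1 CPM) below all of them. The step from liver to muscle was small (log2 fold change 0.54 ± 0.20, adjusted p = 0.0191) and was lost in 2 of the 10 fits that left out an animal (without cow 1 and without cow 4). With library sizes alone the call was lost against fat (-0.03, adjusted p = 0.922). Muscle and fat did not differ beyond their spread (adjusted p = 0.571), and each exceeded pituitary. Of 12 measured genes of the carnitine shuttle and fatty acid oxidation, 4 were called highest in liver, 2 in muscle and 6 in no tissue. Those in liver included ACADL, long-chain acyl-CoA dehydrogenase (log2 fold change 3.11 over the next tissue, adjusted p = 7.32e-16), and CPT2, carnitine palmitoyltransferase 2 (1.88, adjusted p = 1.08e-13). The 2 in muscle were CPT1B, the muscle form of carnitine palmitoyltransferase 1 (log2 fold change 2.84 over pituitary, adjusted p = 5.93e-10), and CRAT, carnitine acetyltransferase (1.77 over liver, adjusted p = 3.36e-09).

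Carriers of cofactors and nucleotides had 7 members, of which 3 were called highest in fat, 1 in liver and 3 in no tissue. SLC25A33, a pyrimidine nucleotide carrier, was higher in fat by 0.93 ± 0.33 over muscle (adjusted p = 0.0172), and 0.69 without the fat of bull 5, where the test did not pass (adjusted p = 0.0510). SLC25A17, a carrier of peroxisomes for cofactors, passed narrowly in fat (0.40 ± 0.18 over pituitary, adjusted p = 0.0485). It did not pass without the fat of bull 5 (0.37, adjusted p = 0.0795), with DESeq2 (adjusted p = 0.0802), with RLE factors (adjusted p = 0.0880), with library sizes alone (adjusted p = 0.147) or in 6 of the 10 fits that left out an animal (adjusted p up to 0.146). SLC25A35, grouped with the other carriers, was also highest in fat (9.42, 13.4 and 37.3 CPM, log2 fold change 2.12 ± 0.28 over pituitary, adjusted p = 3.00e-08), and its other 3 tissues did not differ beyond their spread. SLC25A34, its close relative, was not called for any single tissue because fat (231, 294 and 566 CPM) and muscle (82.0, 249 and 410.1 CPM) did not differ beyond their spread (adjusted p = 0.34), although with library sizes alone fat was above muscle by 1.01 (adjusted p = 0.00188). Both lay far above pituitary (6.47, 10.9 and 15.7 CPM) and liver (1.97, 8.24 and 16.6 CPM), with a log2 fold change of 5.16 ± 0.26 of fat over liver (adjusted p = 1.10e-18).

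Carriers of iron and glutathione had 4 members, called highest in liver, muscle, pituitary and no tissue once each. SLC25A37 (mitoferrin 1) brings iron to the matrix for haem and iron-sulphur clusters, above all in red cell precursors, and SLC25A28 (mitoferrin 2) does so in other cells. SLC25A37 was highest in muscle at 85.9, 126 and 181 CPM, with a log2 fold change of 0.76 ± 0.17 over pituitary (adjusted p = 9.98e-05), which was -0.16 (adjusted p = 0.438) with library sizes alone. Pituitary, liver and fat did not differ from each other at the threshold, most narrowly pituitary and fat (adjusted p = 0.0911). SLC25A28 was highest in liver (108 ± 20.7 CPM) by 0.46 ± 0.20 over fat (adjusted p = 0.0369). That call was lost in 6 of the 10 fits that left out an animal (adjusted p up to 0.115) and turned to -0.21 (adjusted p = 0.355) with library sizes alone. SLC25A40, which takes part in glutathione import, was highest in pituitary (10.52 ± 2.47 CPM against 5.33 ± 1.61 in liver, log2 fold change 0.96 ± 0.20, adjusted p = 5.55e-05).

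The second question was whether the sexes differ, which the study asked within each tissue (M1, 5 bulls against 5 cows) and over the 4 tissues together (M2, with sex and tissue as terms). Both were tested with edgeR's likelihood ratio test, and fold changes are male to female. Within a tissue no member was called: 0 of 40 in liver (all genes 0.175%), 0 in fat (0.114%), 0 in muscle (0.517%) and 0 in pituitary (0.745%). Unless stated otherwise, the liver values for sex include the library of bull 3, with its XIST in the cow range. In each of the 10 fits that left out an animal, bull 3 among them, 0 members were called in liver. At an unadjusted p under 0.05 liver had 5 members, fat 2, muscle 7 and pituitary 3. The numbers among all 13148 genes were 980 (liver), 905 (fat), 1445 (muscle) and 1219 (pituitary). The member counts include some that rest on few reads. These are UCP1 in liver (3 reads in bulls, 0 in cows) and in muscle (0 in bulls, 4 in cows), and UCP3 in liver (2 in bulls, 11 in cows). EdgeR's quasi-likelihood test also called 0 members in each tissue. Of all genes it called 12 for pituitary, 7 for muscle, 3 for fat and 1 for liver. Bulls had the lower fitted level in 25 of the 38 members with a read in liver (SLC25A2 and SLC25A31 had none), and in 18 of 40 for fat, 21 for muscle and 22 for pituitary, and the members' median log2 fold change was -0.11 (liver), 0.06 (fat), -0.06 (muscle) and -0.01 (pituitary), beside medians over all genes with a read in the tissue of -0.0093 (liver), -0.08 (fat), -0.08 (muscle) and 0.0047 (pituitary).

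**Figure D4:**
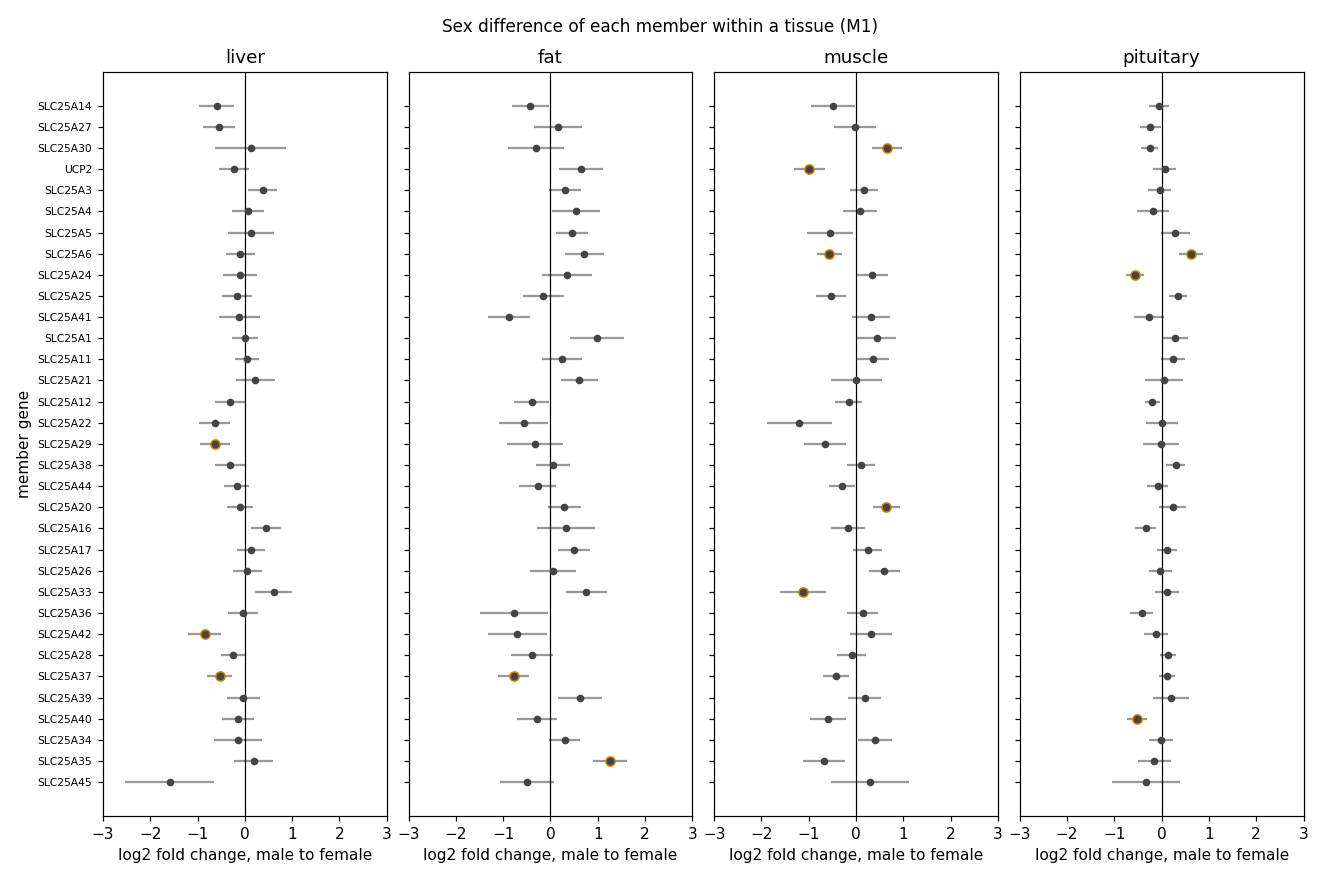
Log2 fold change of bulls over cows with its standard error (bars) for 33 members that exceeded 3 reads in a library of every tissue, fitted within each tissue over 5 bulls and 5 cows. Orange rings mark an unadjusted p under 0.05, and no member passed the adjusted threshold.

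In muscle the member with the smallest p was UCP2. The cows held 28.1, 38.6, 70.1, 55.0 and 31.3 CPM and the bulls 32.5, 15.5, 24.1, 19.9 and 20.04 CPM, so that bull 1 was the one bull above any cow. The log2 fold change was -0.99 ± 0.33 (adjusted p = 0.147 by edgeR's likelihood ratio test). UCP2 is also abundant in immune cells, and of 6 leukocyte markers CD14, a marker of monocytes and macrophages, was called in the same direction in muscle (-1.40 ± 0.34, adjusted p = 0.0233). The summed level of the 6 markers was 178 to 251 CPM in cow muscles and 42.6 to 183 CPM in bull muscles, and the one zero among the 6 markers in muscle was MS4A1, a B cell marker, in 1 bull. The part of leukocytes in the UCP2 difference was not tested.

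UCP3 in muscle was 1117, 368, 1076, 744 and 2612 CPM in cows and 793, 515, 356, 206 and 958 CPM in bulls. The groups overlapped widely, with a log2 fold change of -1.05 ± 0.49 (adjusted p = 0.383). Without cow 5 the log2 fold change was -0.57. SLC25A33 in muscle rested on the same animal: cow 5 held 61.8 CPM and the other 9 animals 7.93 to 14.8, and the log2 fold change of -1.12 ± 0.49 was -0.23 without it. SLC25A20 held 105 ± 29.6 CPM in bull muscles and 67.9 ± 20.6 CPM in cow muscles (SD, n = 5; log2 fold change 0.64 ± 0.29, adjusted p = 0.365), where the low bull was bull 5 and the high cow again cow 5. SLC25A6 did not overlap between the sexes in muscle, with 192, 262, 153, 161 and 231 CPM in cows and 142, 127, 148, 146 and 108 CPM in bulls (-0.56 ± 0.26, adjusted p = 0.38).

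In fat the smallest p was that of SLC25A35, for which the cows held 9.99, 12.3, 9.42, 10.7 and 10.47 CPM and the bulls 21.8, 14.5, 37.3, 20.4 and 34.2 CPM. All bulls lay above all cows, and the log2 fold change was 1.26 ± 0.36 (adjusted p = 0.234 by the likelihood ratio test and 0.813 by the quasi-likelihood test). DESeq2 gave 1.25 with an adjusted p of 0.0425, the only one of these 3 tests to call it, and without the fat of bull 5 the bulls' mean was 23.5 CPM in place of 25.7. SLC25A37 held 47.3 ± 5.77 CPM in bull fats and 80.6 ± 25.7 CPM in cow fats (SD, n = 5; log2 fold change -0.78 ± 0.33, adjusted p = 0.616), with cow 3 below all bulls. SLC25A41 had the third smallest p in fat (-0.88 ± 0.45, adjusted p = 0.728).

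Members without overlap between the sexes were 2 in fat, 1 in muscle, 2 in pituitary and 0 in liver. The share of all genes without overlap was not computed, so these counts have no background. Beside SLC25A35, SLC25A21 was without overlap in fat (log2 fold change 0.61 ± 0.39, adjusted p = 0.813 by the likelihood ratio test). In pituitary SLC25A24 and SLC25A40 did not overlap between the sexes. SLC25A24 held 25.0, 23.8, 27.3, 25.0 and 20.3 CPM in cows and 19.5, 17.0, 15.4, 16.9 and 13.8 CPM in bulls, a log2 fold change of -0.55 ± 0.19 (adjusted p = 0.169), and DESeq2 gave -0.56 with an adjusted p of 0.0327. SLC25A40 held 13.1, 12.2, 15.2, 12.1 and 9.43 CPM in cows and 9.21, 8.02, 7.87, 9.34 and 8.67 CPM in bulls (-0.52 ± 0.21, adjusted p = 0.34). SLC25A6 held 642 ± 171 CPM in bulls and 420.1 ± 122 CPM in cows (0.62 ± 0.25, adjusted p = 0.343, and 0.0497 without cow 5). In liver the smallest p was that of SLC25A42, a coenzyme A carrier (-0.85 ± 0.34, adjusted p = 0.463), followed by UCP3, which had 0 to 3 reads in every liver and gets no fold change, and SLC25A37 (-0.53 ± 0.26, adjusted p = 0.66). For SLC25A37 the one bull in the cow range (64.4 to 88.9 CPM) was bull 3 at 80.6 CPM, and without that animal the log2 fold change was -0.75 (adjusted p = 0.268).

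Over the 4 tissues together, 2 members of 40 were called by M2, beside 1.69% of all genes. UCP3 was lower in bulls by a log2 fold change of -1.17 ± 0.34 (adjusted p = 0.0359), and SLC25A37 by -0.41 ± 0.12 (adjusted p = 0.0493). M2 counts 40 libraries as independent although they come from 10 animals. With the animal as a random block (limma voom, an alternative with replicate block), the values were -1.01 (adjusted p = 0.322) for UCP3 and -0.40 (adjusted p = 0.335) for SLC25A37, and by the quasi-likelihood test the adjusted p was 0.0845 and 0.0770. Neither gene passed in these 2 tests. Both calls were lost without cow 1, cow 2, bull 1, bull 2, bull 3 or bull 4, SLC25A37 also without cow 4 and UCP3 also without cow 5. Without the fat of bull 5 alone, SLC25A37 had an adjusted p of 0.0717.

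Outside muscle the UCP3 value over tissues rested on few reads. Its total over 5 libraries was 11 reads in cow livers and 2 in bull livers, 12 and 2 in fat, and 44 and 28 in pituitary. For SLC25A37 the log2 fold change within muscle was -0.42 ± 0.27, beside the liver and fat values given above, and within pituitary it was 0.12 ± 0.17, or -0.01 with library sizes alone. Markers of red cells, where this gene is best known, summed to at most 18.4 CPM in every library, and their part was not tested. The sex difference was tested for dependence on tissue by an interaction, which called 0 members (all genes 0.335%). At an unadjusted p under 0.05 it had 5 members, beside 1128 of all 13148 genes. These members were SLC25A35, SLC25A6, SLC25A33, UCP2 and SLC25A37, of which SLC25A35 had the smallest adjusted p (0.0858). The quasi-likelihood test of the interaction called 0 members and 0 of all genes.

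**Figure D5:**
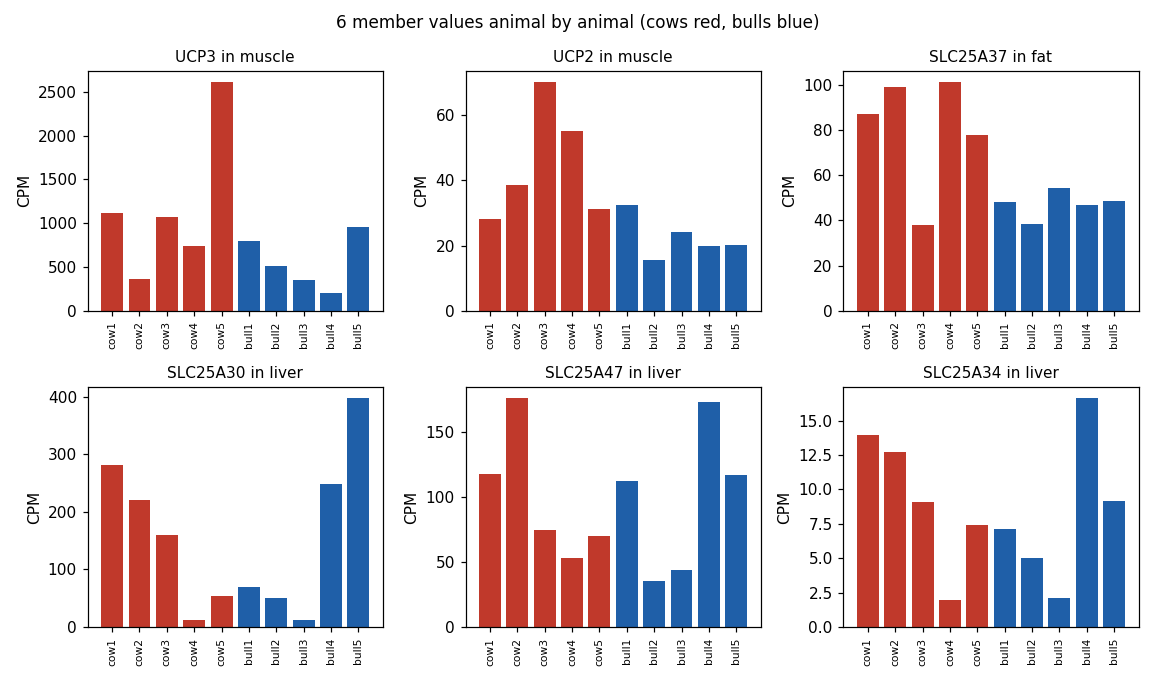
Levels in CPM of 6 members animal by animal (cows red, bulls blue): UCP3 and UCP2 in muscle, SLC25A37 in fat and SLC25A30, SLC25A47 and SLC25A34 in liver. Cow 5 exceeds all others for UCP3 at 2612 CPM, and cow 4 and bull 3 hold the lowest SLC25A30 and SLC25A34 of the livers.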

How the data were processed

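RNA-seq was done on 40 libraries from 10 animals. Per the study's methods, the authors removed adapters and short reads using Trimmomatic, placed the reads on bosTau7 (UCSC) by means of TopHat2, which runs Bowtie2, converted the alignments from BAM to SAM in SAMtools and let HTSeq count those with 1 alignment for each gene. The deposited values are raw counts per gene and library, not normalized. Rows without a gene name held 0.114 to 2.69% of the reads and were left out of library sizes and tests.

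Genes with at least 1 read over all libraries were tested (13148). Tissues were compared with edgeR's quasi-likelihood test and TMM factors. Sex was compared with edgeR's likelihood ratio test within tissues, over tissues and as an interaction, with fold changes at a prior count of 0.125 and Benjamini-Hochberg adjustment at 0.05. Versions were R 4.3.3, edgeR 4.0.16, limma 3.58.1, DESeq2 1.42.0 and Python 3.11.15. The code was tested on simulated data. Libraries held 5173092 to 19165864 reads, at which 3 reads are 0.132 to 0.793 CPM, and counting error sets the precision of low values.

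The text gives values for a fixed set (the uncoupling proteins and their relatives, the adenine nucleotide, phosphate, carnitine, citrate, oxoglutarate, aspartate and iron carriers and SLC25A38), for the 5 members called highest in each tissue with the largest fold change to the next tissue, for every member called for sex and for the 3 with the smallest p for sex in each tissue. SLC25A2, SLC25A17, SLC25A21, SLC25A34, SLC25A45 and the genes of the closing observations were chosen after their values were seen. From each list of other genes at most 4 get values. In addition, 1 member and 1 gene of these lists enter the counts but are not reported here. The members and gene lists were chosen with earlier results of these data known. Ear tags pair the 4 tissues of an animal. The 60 correlations of deviations from group means between tissues of an animal ran from -0.361 to 0.500 (median 0.197), and 38 were above 0.1. Alternatives were other scalings (RLE factors, library sizes alone), DESeq2, the animal as a replicate block and leaving out single animals or the 2 libraries that stood apart. RefSeq symbols (assembly ARS-UCD2.0) matched 40 of 40 members and were used for names and neighbours only.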

Additional observations from a re-analysis of the deposited data

Results flagged for a closer look

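The 31 members named by the rule were examined in each group of 5 libraries, where a library of the group exceeded 3 reads. The highest and the lowest value were compared with the others by Dixon's gap test, which chance passes in about 1 of 20 groups of normally distributed values. CPM were tested untransformed, so this rate need not hold for them. Of 225 groups tested, 16 had a library set apart, in 12 members. The fat of bull 5, the library with little USP9Y, was highest of the bulls for 6 members: SLC25A6 (1504 CPM), SLC25A11 (159 CPM), SLC25A28 (132 CPM), SLC25A33 (83.3 CPM), SLC25A38 (30.8 CPM) and SLC25A47 (0.773 CPM). The pituitary of cow 3 was highest of the cows for SLC25A37 (84.8 CPM) and SLC25A44 (69.3 CPM) and lowest for SLC25A33 (8.70 CPM). The muscle of cow 5 was highest of the cows for SLC25A20 (104 CPM) and SLC25A33 (61.8 CPM). Single values set apart were SLC25A22 in the muscle of cow 4 (31.9 CPM), SLC25A38 in the muscle of cow 2 (23.2 CPM), SLC25A40 in the muscle of bull 3 (1.32 CPM), SLC25A5 in the fat of cow 1 (21.0 CPM) and SLC25A37 in the pituitary of bull 5 (104 CPM).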

How the results depend on the processing

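Members highest in liver were 5 with library sizes alone (SLC25A16, SLC25A22, SLC25A44, SLC25A47 and SLC25A48), 12 with DESeq2 (SLC25A21, SLC25A30 and SLC25A42 in addition to the 9), and 11 with RLE factors and with edgeR's filter on low counts (SLC25A30 and SLC25A42 in addition). With library sizes alone, values that turned included SLC25A28 liver against fat to -0.21, SLC25A37 muscle against pituitary to -0.16, SLC25A38 liver against pituitary to -0.29 and SLC25A37 for the male to female change in pituitary to -0.011. DESeq2 called 1 member for sex in fat and 1 in pituitary in place of 0. For sex over the 4 tissues, the 2 calls became 0 with the quasi-likelihood test (77 of all genes) and 0 with the replicate block (8 of all genes). They became 1 with RLE factors (UCP3), 4 with library sizes alone and 1 without the fat of bull 5 (UCP3). Leaving out 1 animal at a time gave 0 to 2 calls over the tissues, 0 to 1 in pituitary and 0 to 1 for the interaction (1 without cow 4), and 6 to 11 members highest in liver, 6 to 7 in fat, 7 in muscle and 5 to 6 in pituitary. Where no number among all genes is given for a setting, these counts of members have no background. The cause of these changes was not tested. Of 511 alternative values of the members named by the rule, each for its highest tissue against the next, 494 kept direction and side of the threshold. Another 14 no longer passed the threshold and 3 reversed. Losses against a tissue other than the next are not in this count, such as that of SLC25A20 against fat. Nor are those of SLC25A17 and SLC25A45, which the rule does not name. In the test between tissues, the replicate block ended the liver call of SLC25A45, which left 8 members highest in liver, and the tissue called for the other 39 members was the same. Leaving out both libraries that stood apart was chosen after seeing the data. Depth limits UCP1, SLC25A2 and SLC25A31, and UCP3 outside muscle, which rest on few reads. EdgeR's filter on low counts removed UCP1, SLC25A2 and SLC25A31 from the test between tissues, so their calls could not be compared there.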

Other observations

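The muscle of cow 5 also stood high for genes that are no carriers. PDK4, a kinase that slows pyruvate oxidation, was at 13599.7 CPM there, the highest of the 10 muscles, of which the lowest was at 167 CPM. PPARGC1A, a coactivator of mitochondrial genes, was at 1422 CPM, also the highest, with the lowest muscle at 29.9 CPM. In liver, PPARGC1A was at 47.7, 31.7, 52.3, 24.0 and 15.0 CPM in cows 1 to 5 and 45.0, 24.5, 23.0, 88.4 and 197 CPM in bulls 1 to 5.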
